A study of Mus musculus with 6 samples.

Results

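The genes described here are 42 genes of ribosome biogenesis and cell growth that are widely used as a readout of the transcription factor MYC. Members were the rows of the expression table with 1 of 42 gene symbols, and all 42 were found among the 55487 genes of the table and passed the filter on low counts, which left 15332 genes for testing. LSKs (Lin- Sca-1+ c-Kit+ bone marrow cells, the fraction that holds hematopoietic stem and progenitor cells) were compared between 3 Tespa1+/+ (littermate wild type) and 3 Tespa1-/- samples by RNA-seq. All samples came from mice that had received sublethal total body irradiation of 5 Gy, and RNA was taken at day 13. Per the study's methods, the mice were males of 8 to 10 weeks, Tespa1-/- is a targeted allele (B6.129S-Tespa1tm1Smoc) backcrossed to C57BL/6, and sorting followed a lineage depletion, with Lin set by CD3e, CD11b, Gr-1, B220 and Ter-119. The sources used here do not say if a replicate stands for 1 mouse or several, so p-values measure the spread between these samples.

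MYC binds DNA with its partner MAX at E-boxes and raises transcription of genes for growth. A large share of these genes act in the nucleolus, where RNA polymerase I (Pol I) makes the ribosomal RNA precursor, small nucleolar ribonucleoproteins (snoRNPs) modify it, and assembly factors fold and cut it into the small and large ribosomal subunits. Hematopoietic stem cells keep protein synthesis low, and their entry into division and differentiation goes with higher MYC activity and ribosome production.

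The E-box letters CACGTG, which read the same on both strands, were looked up in promoter windows to show where in them a MYC-type E-box lies. E-boxes outside the windows were not searched. RefSeq promoter windows on GRCm38.p6, which run from 250 bases before to 50 bases after the transcription start, were at hand for 37 of the 42 members and not for Srm, Rrs1, Bop1, Fbl and Npm1. CACGTG was found in 11 of these 37 members (29.7%), against 11.9% of the 9978 tested genes with a window and 8.09% of all 27025 genes with a window. The variant CACGCG, or CGCGTG on the other strand, was found in 16 of 37 members (43.2%) and in 19.9% of the tested genes with a window. Cdk4 held 4 CACGTG motifs, Apex1 held 3 and Eif4e held 2. For each of the 11 members the motif nearest to the start is shown in capitals, with up to 12 bases on each side, the position of the window and the distance of the motif's first base from the start base.
Phb, chr11:95666713-95666742, + strand, 232 bases upstream: ttgaggaataggCACGTGcatatattacca
Eif4a1, chr11:69672595-69672624, - strand, 189 bases upstream: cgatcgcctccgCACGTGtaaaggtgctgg
Hspd1, chr1:55088306-55088335, - strand, 80 bases upstream: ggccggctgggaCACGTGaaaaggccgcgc
Eif4e, chr3:138527192-138527221, + strand, 64 bases upstream: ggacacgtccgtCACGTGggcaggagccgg
Nop2, chr6:125131811-125131840, + strand, 60 bases upstream: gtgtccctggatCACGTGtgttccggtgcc
Cdk4, chr10:127063512-127063541, + strand, 11 bases upstream: aagggtgaagatCACGTGtccagaacgtcc
Apex1, chr14:50924937-50924966, + strand, at the start base: gagccctcgaatCACGTGaccacaccaatc
Pes1, chr11:3963965-3963994, + strand, 2 bases downstream: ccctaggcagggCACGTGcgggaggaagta
Wdr43, chr17:71616220-71616249, + strand, 17 bases downstream: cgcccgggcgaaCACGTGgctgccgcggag
Utp20, chr10:88826765-88826789, - strand, 37 bases downstream: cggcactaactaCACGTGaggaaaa
Mybbp1a, chr11:72441355-72441376, + strand, 40 bases downstream: gtcttctgagccCACGTGtttg
A motif match is a description of these letters only. Of the 11 members with CACGTG, 8 passed the edgeR test (adjusted p under 0.05) as higher in the knockout (31.5% of all genes tested were higher and 31.8% lower), Utp20 and Mybbp1a were lower and Eif4a1 did not pass the test, with a median log2 fold change of 0.27. Of the 26 members with a window and no CACGTG in it, 17 were higher, 4 were lower and 5 did not pass, with a median of 0.35.

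Most of the members were higher in Tespa1-/- than in Tespa1+/+ LSKs. By edgeR's quasi-likelihood test with Benjamini-Hochberg adjustment over all 15332 genes (adjusted p under 0.05), 30 of the 42 members rose, 6 fell and 6 did not pass. Among all genes tested, 31.5% rose and 31.8% fell. The median log2 fold change (Tespa1-/- over Tespa1+/+ throughout) was 0.39 over the members and -0.0003 over all genes. The rises were small: 7 members passed with a fold over 1.5 (Nhp2, Tfrc, Srm, Hspe1, Npm1, Nop16 and Nip7), and Phb lay just below that limit (log2 fold change 0.58). This set changed with the corrections for gene length described below. With the exon union length, 7 members passed that limit: Tfrc, Npm1 and Nip7 again, with Nop58, Ncl, Wdr12 and Eif4e. With the longest coding transcript, only Tfrc and Nip7 of the first set passed it. Cad was the 1 member that fell by more than 1.5-fold. Past the same limit, 14.0% of all genes rose and 19.2% fell.

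Levels are normalised read counts (CPM, with library totals adjusted by TMM), in the order of replicates 1, 2 and 3. The summed level of the 42 members was 11885, 11667 and 11673 CPM in the Tespa1+/+ libraries. In the Tespa1-/- libraries it was 14646, 14633 and 14972 CPM, above every Tespa1+/+ library. For 31 members all 3 Tespa1-/- libraries lay above all 3 Tespa1+/+ libraries (34.5% of all genes), for 6 they all lay below (34.6% of all genes), and for 5 the groups overlapped. In bulk RNA, a change in the share of a cell type and a change in RNA per cell cannot be told apart.

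**Figure D1:**
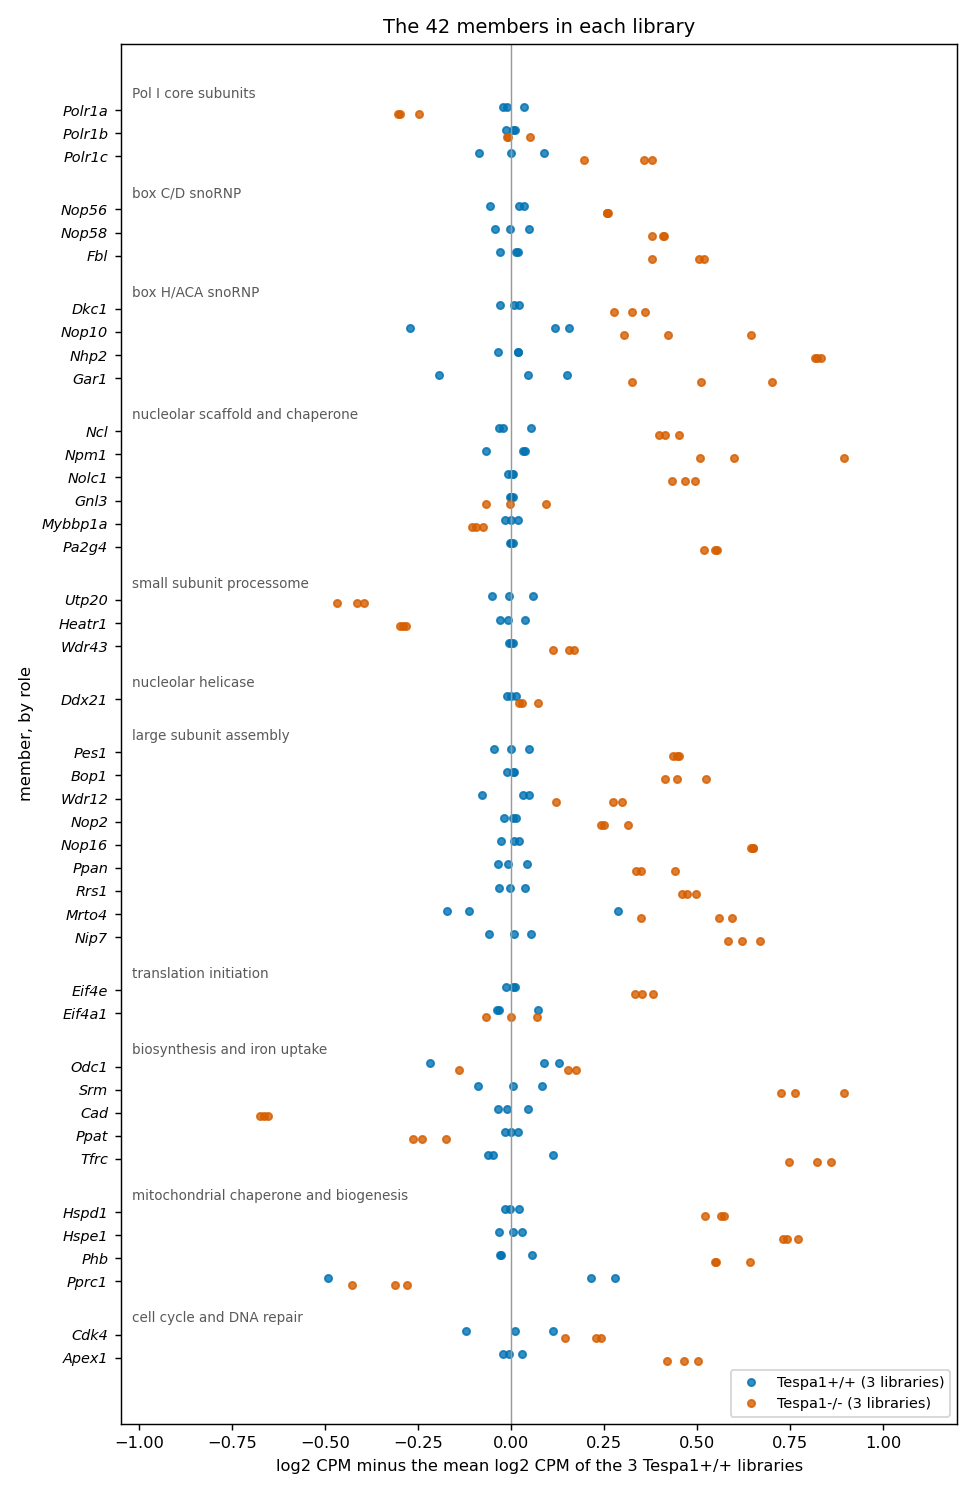
Level of each of the 42 members in each library, as log2 CPM minus the mean log2 CPM of the 3 Tespa1+/+ libraries (x axis), with members on the y axis by role. Each point is 1 library; for 31 members the 3 Tespa1-/- points all lie to the right of the 3 Tespa1+/+ points, and for 6, among them Cad and Utp20, all lie to the left.

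Tespa1 itself was measured at 34.5, 32.7 and 36.0 CPM in the Tespa1+/+ libraries and at 15.3, 14.3 and 14.2 CPM in the Tespa1-/- libraries (log2 fold change -1.23 ± 0.07, adjusted p = 7.00e-06), so reads remained on the gene in the knockout and the groups did not overlap. Myc mRNA was at 180.5, 186 and 234 CPM in Tespa1+/+ and at 207, 236 and 202 CPM in Tespa1-/- LSKs (log2 fold change 0.10 ± 0.11, adjusted p = 0.427). The groups overlapped for Myc, and without Tespa1+/+ replicate 3, the highest of its group, Myc passed the test (log2 fold change 0.24, adjusted p = 0.0308). The data hold RNA only and give no level of the MYC protein.

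Total counts ranged from 12856630 to 30576981 per library. Checked against the label, the gate markers Kit (mean 333 CPM in Tespa1+/+ and 169.6 CPM in Tespa1-/-) and Ly6a, which encodes Sca-1 (50.5 and 40.4 CPM), were present in both groups, and 6 of 7 gate and stem cell markers fell. The 5 promyelocyte markers all rose (sums of 10907 to 11637 CPM in Tespa1+/+ and 17958 to 18774 CPM in Tespa1-/- LSKs), as did all 9 neutrophil markers (21.1 to 23.8 CPM in Tespa1+/+ and 474 to 502 CPM in Tespa1-/- LSKs). None of the 9 was at 0 throughout a group, but several lay near 0 in Tespa1+/+. There Retnlg averaged 0.018 CPM, Mmp9 0.13, Ltf 0.17, Camp 0.20 and Ngp 0.25, while Lcn2 was the highest at 15.8 CPM. Of 6 proliferation markers 3 rose and 2 fell, among them Mki67 (log2 fold change -0.72). Cd3e was at 0 in all Tespa1-/- libraries, and the B cell and plasma cell list, led by Igkc, summed to 178 to 206 CPM in Tespa1+/+ and 368 to 383 CPM in Tespa1-/- LSKs. The erythroid list (3 of 6 rose, 3 fell) and the monocyte list (1 of 6 rose, 3 fell) were mixed. The part of these cell-type differences in the changes of the members was not tested.

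The 3 Pol I subunits did not move together in the counts as deposited. Polr1c, a subunit that Pol I shares with Pol III, rose from 75.6, 71.3 and 80.3 CPM in Tespa1+/+ to 98.4, 96.9 and 86.6 CPM in Tespa1-/- libraries (log2 fold change 0.31 ± 0.07, adjusted p = 0.00457). Polr1a, the largest catalytic subunit (chr6:71909053-71984935, GRCm38), fell from 177, 169.7 and 171 to 140.3, 139.7 and 145 CPM (log2 fold change -0.28 ± 0.03, adjusted p = 0.000263). Neither gene's groups overlapped. Polr1c did not pass with the length and GC correction (log2 fold change 0.10, adjusted p = 0.203) or the correction on the longest coding transcript (log2 fold change 0.05, adjusted p = 0.540), and Polr1a turned to higher with each length correction, a fit that removes the trend of fold change with gene length. Polr1b, its partner in the catalytic core, had a log2 fold change of 0.01 ± 0.03 and did not pass. Polr1b passed as higher with each length correction, at log2 fold changes from 0.18 to 0.29. With the exon union length corrected for, all 3 subunits passed as higher.

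All 7 core proteins of the snoRNPs that are among the members rose. These particles carry guide RNAs to ribosomal RNA, where box C/D particles methylate riboses and box H/ACA particles form pseudouridine. Among the box C/D proteins, Fbl (fibrillarin, the methyltransferase) was at 264, 272 and 272 CPM in Tespa1+/+ and 350.2, 386 and 382 CPM in Tespa1-/- LSKs (log2 fold change 0.47 ± 0.04, adjusted p = 6.59e-05). Nop56, a scaffold of the same particle, had the smallest rise, from 216, 214 and 203 to 252, 252 and 252 CPM (log2 fold change 0.26 ± 0.03, adjusted p = 0.000380), and its 3 Tespa1-/- libraries were nearly equal. Nop58, the other scaffold, changed by 0.40 ± 0.03 (log2).

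Nhp2, an RNA-binding protein of the box H/ACA particle (chr11:51619735-51623714, GRCm38), had the highest fold change of all 42 members in the counts as deposited. It was at 162, 169 and 169 CPM in Tespa1+/+ and 294, 297 and 294 CPM in Tespa1-/- libraries (log2 fold change 0.82 ± 0.03, adjusted p = 1.50e-06), a gap far wider than the spread within either group. Tfrc was close to it (log2 fold change 0.81 ± 0.05). With the exon union length correction Nhp2 stood at 0.53, below Tfrc at 1.11 (log2). Dkc1 (dyskerin, the pseudouridine synthase) rose least in this group, from 199, 201 and 194 to 240.0, 248 and 254 CPM (log2 fold change 0.32 ± 0.03, adjusted p = 0.000135). Gar1 and Nop10, the other core proteins, changed by 0.51 ± 0.12 and 0.45 ± 0.13 (log2). Both spread widely between replicates. Gar1 did not pass with the length and GC correction (log2 fold change 0.26, adjusted p = 0.0536) or that on the longest coding transcript (log2 fold change 0.24, adjusted p = 0.114), and Nop10 passed in none of the length corrections. Nop10 also lost its call without Tespa1-/- replicate 1 (log2 fold change 0.36, adjusted p = 0.0565) and when replicate numbers entered the fit as a block (log2 fold change 0.46, adjusted p = 0.0526).

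Of the 6 abundant nucleolar scaffolds and chaperones, 4 rose. Npm1 (nucleophosmin, a histone and ribosome chaperone, chr11:33152287-33163206) was at 917, 913 and 852 CPM in Tespa1+/+ and at 1271, 1353 and 1660.3 CPM in Tespa1-/- LSKs (log2 fold change 0.68 ± 0.09, adjusted p = 0.000604). Tespa1-/- replicate 3 was well above the other two, yet all 3 were above the Tespa1+/+ libraries. Mybbp1a, a nucleolar MYB-binding protein, was 602, 610.0 and 595 against 564, 559.8 and 572 CPM (log2 fold change -0.09 ± 0.02, adjusted p = 0.0103). This fall was the smallest change called among the members, and it did not pass without Tespa1+/+ replicate 2 (log2 fold change -0.07, adjusted p = 0.0563) or by DESeq2 (log2 fold change -0.09, adjusted p = 0.0794). Pa2g4, a growth-related protein of the nucleolus, rose by 0.54 ± 0.02 and Nolc1, a chaperone of snoRNPs, by 0.46 ± 0.03 on the log2 scale. Ncl (nucleolin), which held the most counts of all members, was at 2284, 2150.5 and 2168 CPM in Tespa1+/+ and 3006, 2897 and 2933 CPM in Tespa1-/- (log2 fold change 0.42 ± 0.03, adjusted p = 1.78e-05). Gnl3 (nucleostemin) was at a log2 fold change of 0.01 ± 0.04 and did not pass.

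The small subunit processome, the particle that forms on the nascent ribosomal RNA, was the group in which more members fell (2) than rose (1) in the counts as deposited. With either length, exon union or longest coding transcript, corrected for, all 3 were higher. Utp20, a very long scaffold protein of it (chr10:88746607-88826804), fell from 177, 169 and 164 CPM in Tespa1+/+ to 128, 123 and 129 CPM in Tespa1-/- libraries (log2 fold change -0.43 ± 0.04, adjusted p = 8.71e-05). Heatr1, another long repeat protein of the processome, fell by 0.29 ± 0.03 on the log2 scale. Wdr43 rose slightly, from 219, 220.1 and 221 to 247, 238 and 245 CPM (log2 fold change 0.15 ± 0.03, adjusted p = 0.00309). Wdr43 did not pass with total counts (log2 fold change 0.04, adjusted p = 0.195) or with limma on log2(FPKM + 1) (log2 fold change 0.04, adjusted p = 0.192). The groups did not overlap for any of these genes. Ddx21, a nucleolar RNA helicase that acts in Pol I transcription and rRNA processing, was at 511, 519.8 and 515 and 541, 526 and 523 CPM (log2 fold change 0.04 ± 0.02, adjusted p = 0.181); its groups did not overlap, although the difference did not pass the test.

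All 9 large subunit assembly factors rose. The highest was Nop16, an early pre-60S factor (chr13:54584185-54590090), at 83.1, 80.3 and 82.3 CPM in Tespa1+/+ and 129, 129 and 128 CPM in Tespa1-/- LSKs (log2 fold change 0.65 ± 0.03, adjusted p = 5.18e-06). Wdr12 was the lowest, at 106, 96.9 and 105 and 126, 111 and 124 CPM (log2 fold change 0.23 ± 0.06, adjusted p = 0.0116), and its Tespa1-/- replicate 2 came close to the Tespa1+/+ libraries. Wdr12 did not pass with total counts (log2 fold change 0.13, adjusted p = 0.0922) or with limma on log2(FPKM + 1) (log2 fold change 0.12, adjusted p = 0.131). Pes1 and Bop1, which form 1 complex with Wdr12, rose by 0.44 ± 0.03 and 0.46 ± 0.04 (log2). Nip7, a factor bound to pre-ribosomes, rose by 0.62 ± 0.05, Rrs1, which helps to bring in the 5S RNA, by 0.48 ± 0.03, Ppan by 0.38 ± 0.04 and Nop2, an rRNA methyltransferase, by 0.27 ± 0.03 (log2). Mrto4, a place-holder for a stalk protein, rose by 0.49 ± 0.13, with Tespa1+/+ replicate 3 (56.9 CPM) above the other 2 of its group (41.3 and 43.0 CPM), and did not pass with the correction on the longest coding transcript (log2 fold change 0.20, adjusted p = 0.217).

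Of the 2 translation initiation factors, 1 passed when each was counted as a single gene. Eif4e, the cap-binding protein, rose from 114, 115 and 116 to 149, 146 and 145 CPM (log2 fold change 0.36 ± 0.03, adjusted p = 6.37e-05). Eif4a1, its partner helicase, was at 563, 521 and 523 CPM in Tespa1+/+ and 561, 510.2 and 535 CPM in Tespa1-/- libraries, with overlapping groups (log2 fold change -0.0003 ± 0.05, adjusted p = 0.996). The difference between the genes was not tested. Of the counts of Eif4a1 and its near-identical copies (described below), 66.5% lay on the copies. Summed with its copies, Eif4a1 passed the edgeR test as higher (log2 fold change 0.26, adjusted p = 3.17e-05). Eif4e summed with its own copies stood at 0.32.

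The 5 genes of metabolite synthesis and iron uptake held the largest fall and one of the largest rises. Tfrc, the transferrin receptor (chr16:32608920-32632794), was at 213, 191 and 189 CPM in Tespa1+/+ and at 358, 331 and 349 CPM in Tespa1-/- (log2 fold change 0.81 ± 0.05, adjusted p = 1.77e-05). Cad, which carries the first steps of pyrimidine synthesis (chr5:31054780-31078479), fell from 422, 430.1 and 447 to 273, 271 and 275 CPM (log2 fold change -0.67 ± 0.03, adjusted p = 3.09e-06), the largest fall of the members. Within polyamine synthesis, Srm (spermidine synthase) rose from 184, 197 and 208 to 324, 364 and 333 CPM (log2 fold change 0.79 ± 0.06, adjusted p = 2.70e-05), while Odc1 (ornithine decarboxylase) had overlapping groups (log2 fold change 0.06 ± 0.11, adjusted p = 0.671). Ppat, the enzyme that commits to purine synthesis, fell by 0.23 on the log2 scale (SE 0.04).

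Of the mitochondrial members, both subunits of the matrix chaperonin rose. Hspe1 was at 136, 140.0 and 142 CPM in Tespa1+/+ and 238, 232 and 233 CPM in Tespa1-/- LSKs (log2 fold change 0.75 ± 0.03, adjusted p = 2.47e-06). Hspd1, its partner, which starts from the same stretch of chromosome 1 on the other strand, rose by 0.55 ± 0.02, and Phb (prohibitin, an inner membrane scaffold) by 0.58 ± 0.05 (log2). Pprc1, a coactivator for mitochondrial genes, was at 99.3, 58.1 and 94.9 CPM in Tespa1+/+ and 67.3, 65.9 and 60.8 CPM in Tespa1-/- libraries (log2 fold change -0.37 ± 0.19, adjusted p = 0.124). Tespa1+/+ replicate 2 lay below all Tespa1-/- libraries while the other 2 Tespa1+/+ libraries lay above them, and without it Pprc1 passed as lower (log2 fold change -0.58, adjusted p = 0.000369).

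Apex1, an endonuclease of base excision repair, rose from 114, 118 and 115 to 164, 159 and 155 CPM (log2 fold change 0.46 ± 0.04, adjusted p = 3.25e-05). Cdk4, the kinase of the early cell cycle, was at 296, 271 and 318 CPM in Tespa1+/+ and 326, 348 and 345 CPM in Tespa1-/- (log2 fold change 0.20 ± 0.06, adjusted p = 0.0207), with the groups only just apart. Cdk4 did not pass without Tespa1-/- replicate 2 (log2 fold change 0.19, adjusted p = 0.0542) or 3 (log2 fold change 0.20, adjusted p = 0.0516). Its value was also lower and did not pass with total counts (log2 fold change 0.10, adjusted p = 0.179), both limma fits (log2 fold change 0.10, adjusted p = 0.199 on log2(FPKM + 1)), the length and GC correction (log2 fold change 0.11, adjusted p = 0.179) and that on the longest coding transcript (log2 fold change 0.13, adjusted p = 0.110). Exons of Apex1 overlap those of Pip4p1 on the opposite strand over 61.7% of their length, and those of Cdk4 overlap Tspan31 over 19.7%. Whether counting used the strand is not given in the sources used here, so reads of such pairs may be shared. For the other 15 members with an overlapping gene the overlap was at most 7.6%.

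Levels can be compared between members only per length, as FPKM (counts scaled by gene length and library total, the deposited values, mean ± SD, n = 3). In Tespa1+/+ LSKs the order was led by Npm1 (229.7 ± 9.51 FPKM), Hspd1 (217 ± 3.02), Ncl (188 ± 6.43), Pa2g4 (132 ± 0.286) and Srm (104 ± 6.10). The first of these, Npm1 and Hspd1, lay closer than the sum of their SDs. The lowest levels were those of Wdr12 (7.32 ± 0.352 FPKM), Pprc1 (9.87 ± 2.66) and Polr1a (11.4 ± 0.257), and Pprc1 lay closer to both of the others than the sum of the SDs. In Tespa1-/- LSKs the order was again led by Npm1 (342 ± 49.3 FPKM), Hspd1 (298 ± 5.17) and Ncl (234 ± 4.09), and the lowest was Pprc1 (7.08 ± 0.373). Npm1 and Hspd1 again lay closer than the sum of their SDs. The order rests on the gene lengths behind the deposited values. It also leaves out counts on near-identical copies elsewhere in the genome (described below), 31.6% for Npm1 and 23.7% for Hspd1. The order therefore describes the deposited values only.

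Fold change followed gene length in these libraries, among the members as among all genes. Length is that of the union of the exons in GENCODE M21. Spearman's rho between length and log2 fold change was -0.69 across the 42 members and -0.47 across 15314 genes. These are correlations across genes of the same 6 libraries, and genes are not independent replicates. The 7 members under 2000 bases all rose (median 0.65, against 0.43 for 4052 genes of that length), and of the 14 members from 2000 to 4000 bases 13 rose and none fell (median 0.47, against 0.13 for 4235 genes). From 4000 to 6000 bases 5 of 10 members rose and 2 fell (median 0.09, against -0.11 for 3120 genes). At 6000 bases or more 5 of 11 rose and 4 fell (median 0.01, against -0.42 for 3907 genes). In each class the members' median was above that of all genes of like length, and for 38 of the 42 members the fold change was above that median. The 4 that fell at 6000 bases or more were Polr1a, Utp20, Cad and Heatr1.

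**Figure D2:**
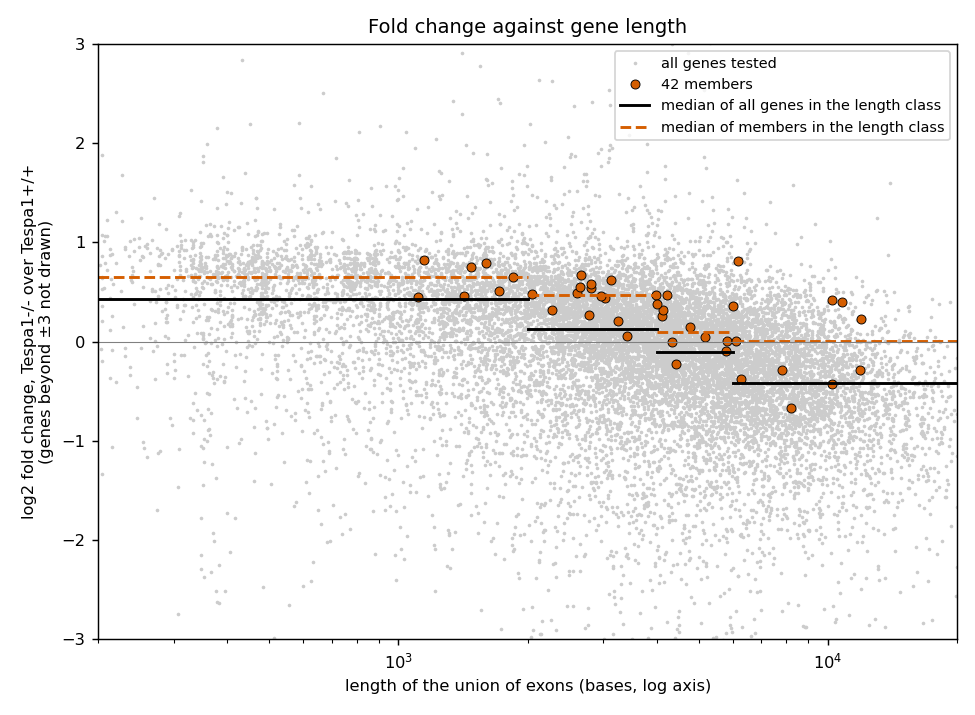
Log2 fold change (y axis) against the length of the union of exons in bases (x axis, log scale) for all genes tested (grey) and the 42 members (orange), with the median of each length class drawn as a line, black for all genes and dashed orange for members. Both medians fall with length, from 0.43 to -0.42 for all genes and from 0.65 to 0.01 for the members, and the members' line lies above in each class.

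When the trend with length was removed from each library (loess offset in edgeR), 36 members rose, 1 fell and 5 did not pass, with a median log2 fold change of 0.38 against 0.08 for all genes, of which 34.3% rose and 23.4% fell. Spearman's rho with length was then -0.05 across the members. Polr1a, Mybbp1a, Utp20 and Heatr1 turned from lower to higher, at 0.33, 0.18, 0.11 and 0.13 (log2). Polr1b, Gnl3 and Ddx21 passed as higher, at 0.28, 0.30 and 0.25. Of the members that kept their call and direction, 5 had a value more than 1.5 times larger and 5 a value more than 1.5 times smaller, among them Apex1 (0.22). Cad stayed lower at -0.23, Ppat no longer passed (-0.09), and Nop10 no longer passed (0.15). Tfrc, Nop58 and Ncl had the largest corrected values (1.11, 0.96 and 0.96), and the corrected values of Nop58, Ncl and Wdr12 rest on annotated exon unions of 10758, 10188 and 11955 bases. With the length of the longest coding transcript in place of the exon union, a choice made after the data were seen, 31 members rose, none fell and 11 did not pass (32.5% of all genes rose and 22.1% fell), and Cad was at -0.0044 and Ppat at 0.05, neither of them passing. Spearman's rho between coding length and log2 fold change was 0.37 across the members after that correction and -0.57 before it. Among the members that passed without a correction, Polr1a, Mybbp1a, Utp20 and Heatr1 changed direction with either length. Ppat changed sign only with the longest coding transcript. The long members Tfrc, Nop58, Ncl, Wdr12 and Eif4e were higher without a correction and with both, and Cad turned higher with neither. Whether the trend with length is technical was not tested.

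**Figure D3:**
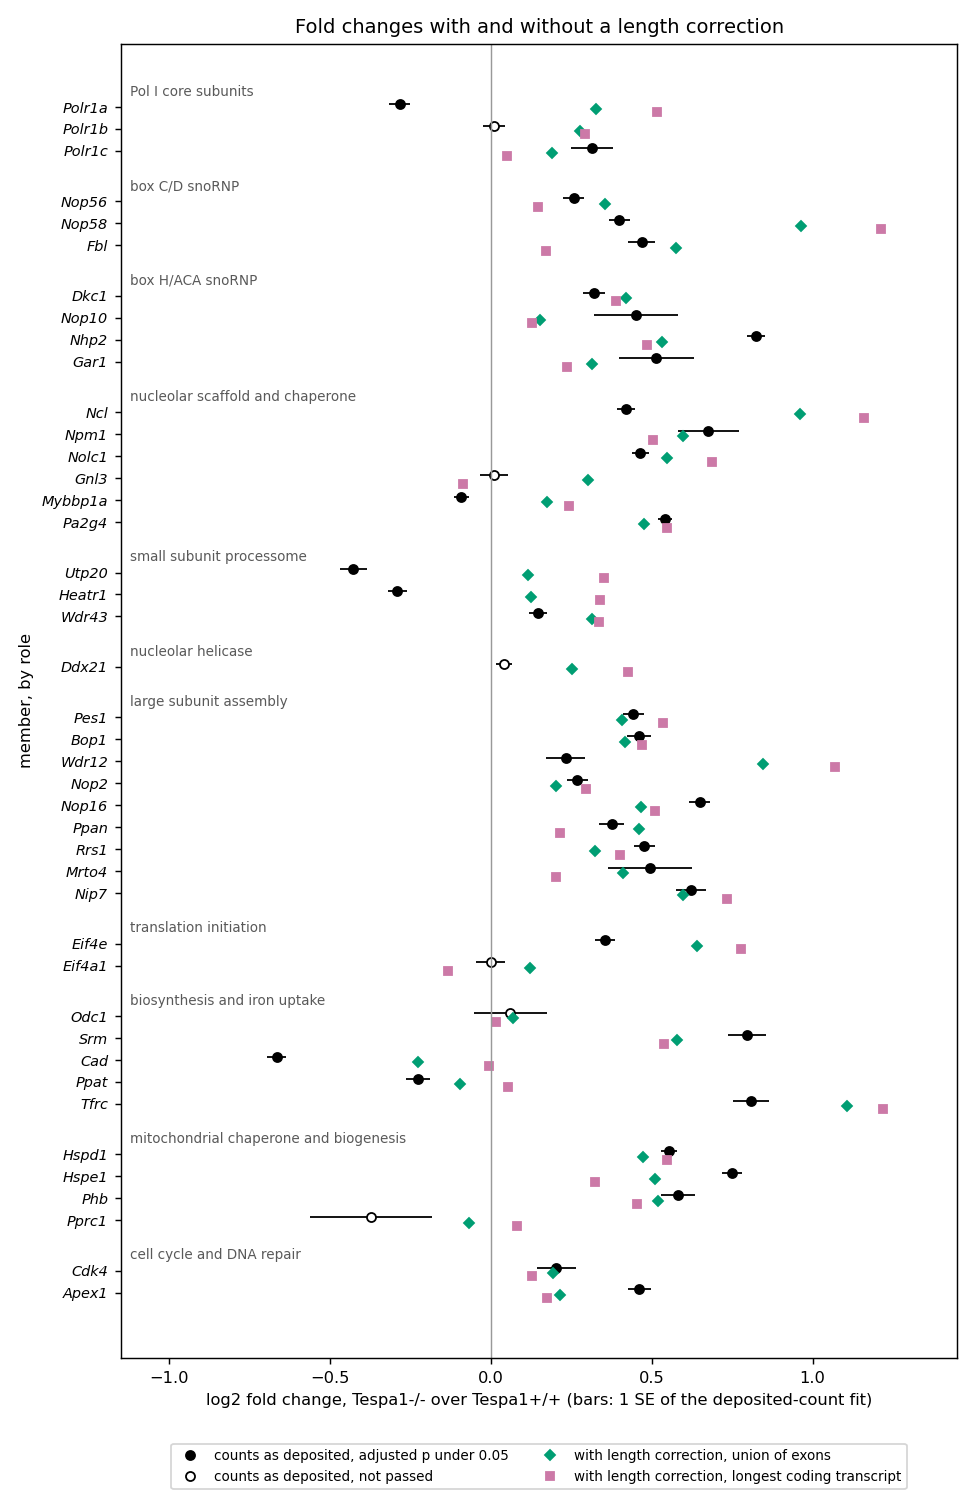
Log2 fold change of each member (x axis; members by role on the y axis). Circles with 1 SE bars are the fit to the counts as deposited (filled where the adjusted p was under 0.05), and diamonds and squares are the same fit with each of the length corrections, without error bars. Polr1a, Mybbp1a, Utp20 and Heatr1 lie left of 0 without a correction and right of 0 with both, and Cad moves from -0.67 to -0.23 and -0.0044.

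Several members have near-identical processed pseudogenes, copies of the mRNA elsewhere in the genome, which are counted as genes of their own and with which reads may have been split. For 23 members at least 1 such copy with 90% identity over 300 bases was annotated. For Phb, 82.0% of the counts of the gene and its copies lay on the copies, for Eif4a1 66.5%, for Mrto4 34.7%, for Npm1 31.6%, for Fbl 31.2%, for Odc1 27.0%, for Hspd1 23.7% and for Nop56 22.1%. The main copy of Phb was 99.9% identical over 819 bases and rose by 0.79 on the log2 scale. When each member was summed with its copies, which was also tried only after the data were seen, Eif4a1 passed as higher (log2 fold change 0.26, adjusted p = 3.17e-05), so that 31 members rose and 6 fell. Phb then stood at 0.75, Mrto4 at 0.59 and Nop56 at 0.39, each above its own value without the copies, while Hspd1 (0.52) and Eif4e (0.32) stood below theirs. The values of these members as single genes are uncertain to that extent.

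Another shared feature is that 9 members host annotated snoRNA genes, 25 in all, within their own transcripts: Nop56, Nop58, Dkc1, Ncl, Gnl3, Wdr43, Ppan, Eif4a1 and Odc1. Of these hosts 6 rose and 3 did not pass, and of the other 33 members 24 rose, 6 fell and 3 did not pass.

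The other genes of ribosome biogenesis moved in the same direction for the most part. Of 108 further genes of the pathway, 74 rose, 7 fell and 27 did not pass, with a median log2 fold change of 0.29. Over all genes tested, 31.5% rose and 31.8% fell, with a median of -0.0003. This list was chosen with earlier results of these data known. In snoRNP assembly 10 of 11 rose and none fell, in the small subunit processome 30 of 39 rose and 2 fell, and in large subunit assembly 29 of 46 rose and 5 fell. In Pol I transcription 5 of 12 rose and none fell. Its general factors Ubtf, which binds the ribosomal DNA (log2 fold change 0.03 ± 0.08, adjusted p = 0.749), and Rrn3, which recruits Pol I (log2 fold change 0.09 ± 0.05, adjusted p = 0.120), did not pass. Both passed as higher in all 3 length corrections, from 0.28 to 0.41 (log2) for Ubtf and from 0.12 to 0.30 for Rrn3.

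The highest of the 108 were Rsl24d1, an exchange factor of the large subunit, at 40.7, 87.1 and 85.8 CPM in Tespa1+/+ and 111, 138 and 134 CPM in Tespa1-/- (log2 fold change 0.84 ± 0.27, adjusted p = 0.0285), Cd3eap, a Pol I subunit (log2 fold change 0.79 ± 0.06, adjusted p = 2.19e-05), and Znhit3, a snoRNP assembly factor (log2 fold change 0.76 ± 0.12, adjusted p = 0.00117). Rsl24d1 rested on few libraries: Tespa1+/+ replicate 1 was far below the other 2, and the call was lost without Tespa1-/- replicate 2 (log2 fold change 0.79, adjusted p = 0.0731) or 3 (log2 fold change 0.81, adjusted p = 0.0668). The lowest was Mdn1, the giant ATPase that remodels the pre-60S particle, with 21836 bases of exon, at 339.9, 339 and 320.4 CPM in Tespa1+/+ and 138, 130.4 and 137 CPM in Tespa1-/- (log2 fold change -1.30 ± 0.04, adjusted p = 1.05e-06). Urb2 and Gnl3l followed at -0.48 ± 0.06 and -0.41 ± 0.06 (log2). With the length correction 90 of the 108 rose and 2 fell, Mdn1 at -0.47 and Urb2 at -0.18. Of all genes, 34.3% rose and 23.4% fell with that correction.

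**Figure D4:**
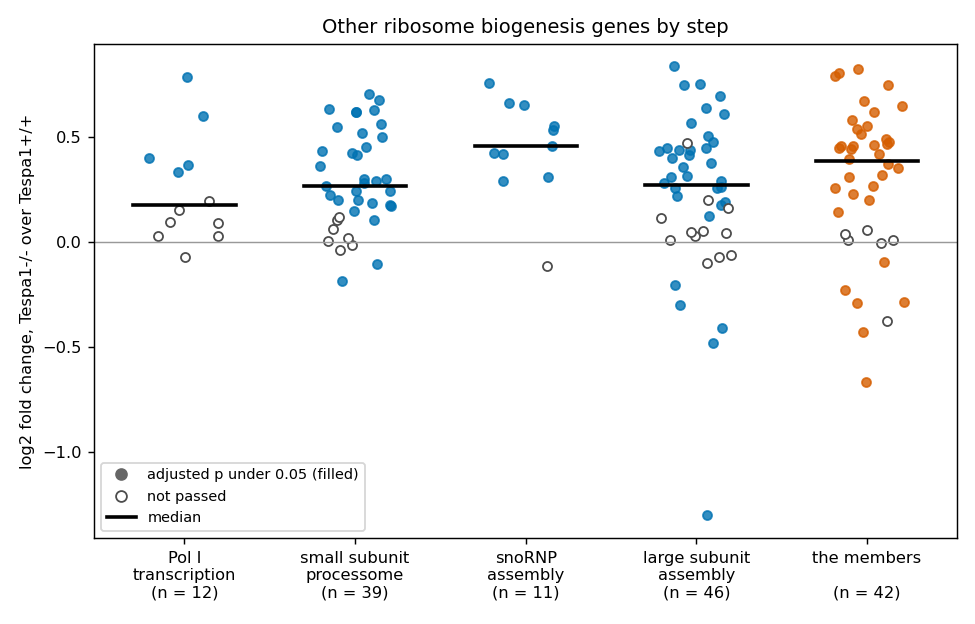
Log2 fold change (y axis) of 108 other ribosome biogenesis genes in 4 steps of the pathway and of the 42 members (x axis, with the number of genes). Each point is a gene, filled where the adjusted p was under 0.05, and the line is the median; the medians lie between 0.18 in Pol I transcription and 0.46 in snoRNP assembly, and Mdn1 stands apart at -1.30.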

How the data were processed

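LSK RNA of 6 samples (3 Tespa1+/+, 3 Tespa1-/-) had been sequenced as stranded poly-A libraries. The authors deposited 1 table with a raw count and an FPKM value (count scaled by gene length and library total) per gene and sample. The submitters' processing notes name CASAVA 1.8, HISAT2, StringTie, edgeR and the build GRCm38, and the counting tool and its strand setting are not given in the sources used here. Groups came from the sample titles. Replicates differed beyond sampling noise and each was kept.

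After filterByExpr and TMM scaling, the 6 samples were fitted in edgeR 4.0.16 under R 4.3.3 without covariates, and the quasi-likelihood test was used, with Benjamini-Hochberg adjustment over 15332 genes. A gene was said to rise or fall where the adjusted p was below 0.05, and those that also changed by more than 1.5-fold were counted separately. The SE is the size of the log2 fold change over the root of F. Lengths came from GENCODE M21, in which all 42 members had the coordinates of the table, and copies were found with blastn 2.17.0. The length correction fitted the deviation of log2 CPM by loess (span 0.5) on log2 length and used it as an offset. Alternatives were DESeq2 1.42.0, limma 3.58.1 on log2(FPKM + 1) and log2(FPKM + 0.1), other scalings and filters, a replicate block, leaving out each library, and the corrections. The edgeR and DESeq2 fits, limma on log2(FPKM + 1) and the exon union length correction were run on simulated data. The simulated trend was linear in the same log2 length, so this run cannot check that correction on real data. The length and GC correction and that on the longest coding transcript were not simulated. Each of the 42 members is named, with values per library for the highest and lowest fold change of each role, and of the 108 other genes the 3 highest, the 3 lowest, Ubtf and Rrn3 are named. Srm and Ncl are given per library in addition, and were chosen after their values were seen. The members and all lists were chosen with earlier results of these data known. Counting error was small at these depths (total counts of 12856630 to 30576981).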

Additional observations from a re-analysis of the deposited data

How the results depend on the processing

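Of the 36 members called, 23 kept their direction and their call in all 18 alternatives, and 31 did so in the alternatives other than the 3 length corrections. The 6 members that did not pass each changed sign or passed in at least 1 alternative. The sample titles give no pairing, and samples with the same replicate number were not treated as pairs. Correlations of same-numbered deviations were -0.0728, -0.0783 and 0.0136, which cannot exclude a pairing by design. With the replicate block 29 members rose and 6 fell, Nop10 being the 1 call lost. Leaving out 1 library in turn gave 29 to 30 members higher, 6 lower, 7 to 10 higher by over 1.5-fold (10 without Tespa1+/+ replicate 3) and a median log2 fold change of 0.35 to 0.40.

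The members lower numbered 1 with the length correction, 2 with length and GC correction and 0 with the longest coding transcript, in place of 6, and by more than 1.5-fold 0 in all 3. Members higher by over 1.5-fold numbered 4, in place of 7, with total counts without factors, with both limma fits and with length and GC correction. They numbered 7 with the length correction and with the longest coding transcript, but these were in part other members. The median log2 fold change of the members was 0.29 with total counts (all genes moved to -0.10), 0.27 and 0.29 with limma on log2(FPKM + 1) and log2(FPKM + 0.1), 0.29 with length and GC correction and 0.34 with the longest coding transcript. Of the other ribosome biogenesis genes 12 were lower with total counts and with both limma fits, 2 with the length correction and 3 with the longest coding transcript, in place of 7. Under the total counts the members split into 27 higher and 7 lower.

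The sign changed with the length correction for Polr1a (0.33), Mybbp1a (0.18), Utp20 (0.11) and Heatr1 (0.13). It changed with length and GC correction for Polr1a (0.23), Mybbp1a (0.0906), Utp20 (0.0258) and Heatr1 (0.0367). Utp20 and Heatr1 did not pass there (adjusted p = 0.549 and 0.261 by the edgeR test). It changed with the longest coding transcript for Polr1a (0.52), Mybbp1a (0.24), Utp20 (0.35), Heatr1 (0.34), Ppat (0.0537) and Urb2 (0.0539). Ppat and Urb2 did not pass there. Against a main value near 0, it changed for Polr1b with total counts (-0.0906) and with limma on log2(FPKM + 1) (-0.0861) and log2(FPKM + 0.1) (-0.0898), and for Eif4a1 with pseudogene copies summed (0.26). Calls of single members were lost in 3 cases with total counts, in 4 with each limma fit, in 2, 6 and 7 with the length, length and GC, and longest coding transcript corrections, in 1 each with DESeq2 and without a filter, and in 0 or 1 on leaving out a library. The causes of these changes were not tested. Depth was not limiting for the members, each with at least 4897 counts over the 6 libraries.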
